A study of Mus musculus with 2 samples.

Results

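Lymphoid tissue inducer (LTi) cells belong to the innate lymphoid cells, and lymph nodes and Peyer's patches form with their help. Their chromatin was profiled with an antibody to TCF-1, the transcription factor that Tcf7 encodes, by chromatin immunocleavage sequencing (ChIC-seq). The regions described here are those with many reads of both the library called peak and the library called control. An island is a stretch of clustered reads called by the authors. Members were the nuclear islands with at least 30 and fewer than 200 reads of the peak library, at least 10 reads of the control library, and a peak-to-control read ratio of at least 2 and below 6. This rule selected 1812 of the 19528 nuclear islands (9.28%), and of the 2974 whose peak-library reads were within those limits. The others of the 2974 had under 10 control reads (801 islands), a ratio below 2 (360) or one of 6 or more (1), and the first pair of these sets serve below as classes to compare with.

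The series holds 2 libraries of 500 fixed cells each from C57BL/6 mice, 1 per group. One was made from Tcf7+/+ LTi cells of Peyer's patches, and the other from Tcf7fl/fl-VavCre LTi cells of the small intestine lamina propria, in which a Cre under the Vav promoter deletes Tcf7 in blood-forming cells and their progeny. Both were sorted as lineage-negative, CD127- and CCR6-positive cells without KLRG1, NK1.1 and NKp46. Genotype and tissue differ together and each group has 1 library, so there is no replicate error and no test between conditions. The header of the deposited table names its columns peak and control without a sample, and therefore no read column was tied to a genotype. That these columns are the 2 libraries of the series is assumed here and not stated in the header. Islands held 483771 peak-library and 189291 control-library reads, while the libraries' full depth is not known here. An island of 1800 bp over the start of Tcf7, the targeted gene, had 33 against 4 reads and was no member, and these reads do not check the genotype labels.

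As background, ChIC-seq brings micrococcal nuclease to an antibody on chromatin and sequences the DNA that it cuts loose. The enzyme also cuts accessible DNA with little regard to the antibody, which makes promoters of active genes common places for reads in any such library. Promoters of widely used genes often lie in CpG islands, stretches rich in G, C and unmethylated CpG that lack nucleosomes at the start site. TCF-1 itself binds a short AT-rich site through its HMG box.

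The sequences below are promoters that lay in member islands, shown because most members covered a gene start. They are the RefSeq bases just before the start, 250 for each gene, 5′ to 3′ on the gene's strand, with GRCm38.p6 (mm10) positions. The first 5 belong to the 3 members with the most peak-library reads among those over a start. The other 5 were added for a motif that those did not show. Capitals mark matches on either strand to the motifs searched. The TCF/LEF site was searched as CTTTGAA and as CTTTGAT. The ETS site was CCGGAAG. The box of NF-Y was CCAAT. The GC box was GGGCGG. The CRE was TGACGTCA. The AP-1 site was TGACTCA. The TATA box was TATAAA. The RUNX site was TGTGGT. The longer motifs of NRF1, YY1 and NF-kB can be read as the longest capital runs of the Pdcd4, Cacybp and Ltb promoters, the last on the opposite strand. Matches may overlap each other, as the CCAAT and AP-1 matches do in the Hspa5 promoter.
Polg2, chr11:106779538-106779787, minus strand: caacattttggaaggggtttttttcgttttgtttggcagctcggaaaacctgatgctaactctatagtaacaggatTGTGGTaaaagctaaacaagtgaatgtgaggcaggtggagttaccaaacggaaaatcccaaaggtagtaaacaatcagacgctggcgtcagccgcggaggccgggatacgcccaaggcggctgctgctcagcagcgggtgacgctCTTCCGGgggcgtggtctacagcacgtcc
Ddx5, chr11:106789186-106789435, minus strand: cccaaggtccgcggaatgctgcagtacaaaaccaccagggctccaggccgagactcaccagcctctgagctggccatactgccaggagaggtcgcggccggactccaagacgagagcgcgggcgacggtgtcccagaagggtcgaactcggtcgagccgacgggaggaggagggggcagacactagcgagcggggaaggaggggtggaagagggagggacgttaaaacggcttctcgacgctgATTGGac
Cep95, chr11:106789002-106789251, plus strand: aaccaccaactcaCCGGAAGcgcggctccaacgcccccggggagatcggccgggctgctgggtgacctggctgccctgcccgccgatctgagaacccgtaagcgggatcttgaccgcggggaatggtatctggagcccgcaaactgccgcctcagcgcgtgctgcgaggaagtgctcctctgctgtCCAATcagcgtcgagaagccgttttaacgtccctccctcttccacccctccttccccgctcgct
Irf2bpl, chr12:86884815-86885064, minus strand: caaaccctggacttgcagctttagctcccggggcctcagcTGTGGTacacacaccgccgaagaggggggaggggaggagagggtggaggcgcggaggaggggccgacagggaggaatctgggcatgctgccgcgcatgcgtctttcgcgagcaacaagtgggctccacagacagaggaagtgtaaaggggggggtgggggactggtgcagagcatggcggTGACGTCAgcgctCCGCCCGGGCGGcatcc
Fos, chr12:85473640-85473889, plus strand: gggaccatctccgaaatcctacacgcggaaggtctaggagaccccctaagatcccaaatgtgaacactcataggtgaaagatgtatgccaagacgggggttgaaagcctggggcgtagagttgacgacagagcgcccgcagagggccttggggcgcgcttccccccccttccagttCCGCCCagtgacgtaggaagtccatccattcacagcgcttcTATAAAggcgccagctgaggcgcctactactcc
Ppp1r10, chr17:35916946-35917195, plus strand: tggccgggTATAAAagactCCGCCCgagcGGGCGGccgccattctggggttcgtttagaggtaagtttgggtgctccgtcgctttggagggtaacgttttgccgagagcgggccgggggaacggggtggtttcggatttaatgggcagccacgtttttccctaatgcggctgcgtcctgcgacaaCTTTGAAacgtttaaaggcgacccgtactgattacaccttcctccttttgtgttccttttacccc
Hspa5, chr2:34771840-34772089, plus strand: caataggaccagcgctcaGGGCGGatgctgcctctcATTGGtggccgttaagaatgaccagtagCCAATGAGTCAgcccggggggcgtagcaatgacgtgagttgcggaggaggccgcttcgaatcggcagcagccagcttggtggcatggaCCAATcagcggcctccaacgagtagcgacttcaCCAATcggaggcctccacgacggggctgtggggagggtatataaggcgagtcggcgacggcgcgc
Pdcd4, chr19:53903101-53903350, plus strand: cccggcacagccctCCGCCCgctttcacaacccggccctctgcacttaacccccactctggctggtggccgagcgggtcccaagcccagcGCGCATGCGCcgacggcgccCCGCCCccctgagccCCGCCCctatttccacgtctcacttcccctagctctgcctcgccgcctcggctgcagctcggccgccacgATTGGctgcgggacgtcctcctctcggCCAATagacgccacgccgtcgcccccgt
Cacybp, chr1:160212893-160213142, minus strand: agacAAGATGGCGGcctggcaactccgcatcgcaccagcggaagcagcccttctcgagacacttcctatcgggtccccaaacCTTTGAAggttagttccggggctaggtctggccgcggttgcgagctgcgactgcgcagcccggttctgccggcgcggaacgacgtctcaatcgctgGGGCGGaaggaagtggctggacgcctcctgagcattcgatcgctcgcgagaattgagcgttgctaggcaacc
Ltb, chr17:35194257-35194506, plus strand: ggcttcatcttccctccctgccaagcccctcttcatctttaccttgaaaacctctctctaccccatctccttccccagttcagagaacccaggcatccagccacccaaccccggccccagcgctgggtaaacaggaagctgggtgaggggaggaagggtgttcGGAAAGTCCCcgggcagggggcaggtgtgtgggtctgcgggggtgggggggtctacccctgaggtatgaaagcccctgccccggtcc

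The printed Ddx5 and Cep95 windows overlap, since the genes start back to back on opposite strands. The Fos promoter carries a TATA box match, the Hspa5 promoter several CCAAT matches, and the Pdcd4 promoter an NRF1 match between GC boxes. A match to the TCF/LEF letters appears in the Ppp1r10 and Cacybp promoters. The Ltb promoter holds an NF-kB match. A match is a description of the letters and not a bound site.

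Reads in the members were many by the choice of the rule, and the read values that follow describe that choice. The peak library had 30 to 193 reads per member (median 41, quartiles 34 and 49), and the control library had 10 to 67 (median 15, quartiles 12 and 18). The read ratio had a median of 2.75, with quartiles of 2.38 and 3.20. Together the members held 80026 peak-library and 28965 control-library reads. That was 17.4% of the peak-library reads and 17.7% of the control-library reads in nuclear islands. Leaving out nuclear islands of 200 or more peak-library reads, it was 20.7% of the peak-library reads and 24.3% of the control-library reads. Their pooled fold, peak reads over 1.997 times the control reads (the scale that the authors' fold column implies), was 1.38 (exact 95% interval 1.37 to 1.40, for counting error only, since PCR copies are not independent molecules). With the table's totals set equal it was 1.08. Going by the FDR values of the authors' deposited table, 1014 members (56.0%) had an FDR of 0.05 or less, where 62.5% of all islands did, and 101 (5.57%) had one of 1e-05 or less, where 20.7% did. The rule used the same reads, so nothing is read from these shares.

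**Figure D1:**
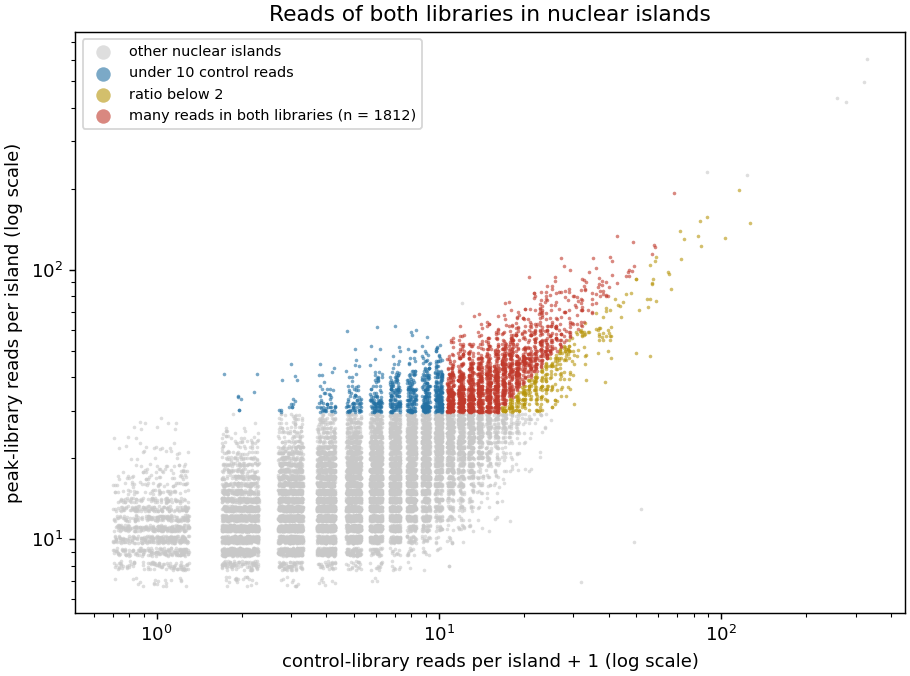
Peak-library reads against control-library reads plus 1 for nuclear islands, both on log scales, with a small random shift for visibility and 9 islands of 1000 or more peak reads left off. The members (red) form the band with 30 to 193 peak reads and 10 to 67 control reads, between islands with under 10 control reads (blue) and islands with a ratio below 2 (yellow).

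Islands were about as many on either side of the lower limits on reads. There were 106 members at exactly 30 peak reads, and 90 islands at 29 reads met the other limits. A gene start lay in 61.0% of the former and 60.2% of the latter. At exactly 10 control reads there were 176 members, and 184 islands at 9 control reads were just outside, with a gene start in 59.9% and 53.7%. A ratio of exactly 2 was held by 47 members, while 54 islands had a ratio from 1.9 to below 2. The latter is a range and the former a single value, so these counts do not compare the sides of that limit. At the upper ratio limit there were 12 members from 5 to below 6, led by an island over the start of Pcf11 (62 against 11 reads). Only 1 island lay beyond that limit, 75 against 11 reads at 31501801 to 31506800 on chromosome 13, whose nearest gene is Foxq1. The upper read limit left out 1 island, over the start of Fosb, with 230 against 88 reads.

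Most members covered the start of a protein-coding gene. Starts were taken from the RefSeq promoter table, which has an entry for 17492 of 21887 protein-coding genes and none on chromosome 18, so the 35 members there were left out of this share. Of the other 1777 members, 1155 (65.0%, exact 95% interval 62.7 to 67.2) had a start inside, against 31.9% (31.2 to 32.6) of all nuclear islands. Among islands with as many peak-library reads, the share was 48.8% (45.3 to 52.4) where the control library had under 10 reads (n = 778), and 63.0% (57.7 to 68.0) where the ratio was below 2 (n = 354). These classes share the members' limits on peak reads but not their level, with medians of 34 and 39 reads against 41. The share in members therefore lay above that of islands with few control reads, with intervals that did not overlap, and close to that of islands with a ratio below 2. These intervals treat islands as independent and cover counting error only.

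The other members lay mostly at or inside genes. Of all 1812 members, 179 (9.88%) lay over an end of a gene whose strand the promoter table does not give, 17 (0.938%) over a known 3′ end and 242 (13.4%) inside a gene away from its ends. More than 10 kb from every protein-coding gene lay 122 members (6.73%). The part of these from 10 to 50 kb was 4.64% of members. It was 4.17% of islands with a ratio below 2, 8.24% of those with few control reads and 8.46% of all nuclear islands. In all nuclear islands the share inside genes was 36.7%, and in islands with few control reads it was 24.0% (21.1 to 27.1). With a ratio below 2 it was 10.8% (7.82 to 14.5), an interval that holds the members' share. Read from the position, 1155 of 6052 nuclear islands over a gene start were members (19.1%), and 242 of 7160 inside a gene (3.38%). Most of that contrast went with the read limit: of islands within the members' limits on peak reads, members made up 65.7% (63.4 to 67.9) of those over a start and 51.2% (46.6 to 55.8) of those inside a gene. Over all nuclear islands the median was 22 against 7 reads over a start and 14 against 3 inside genes.

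**Figure D2:**
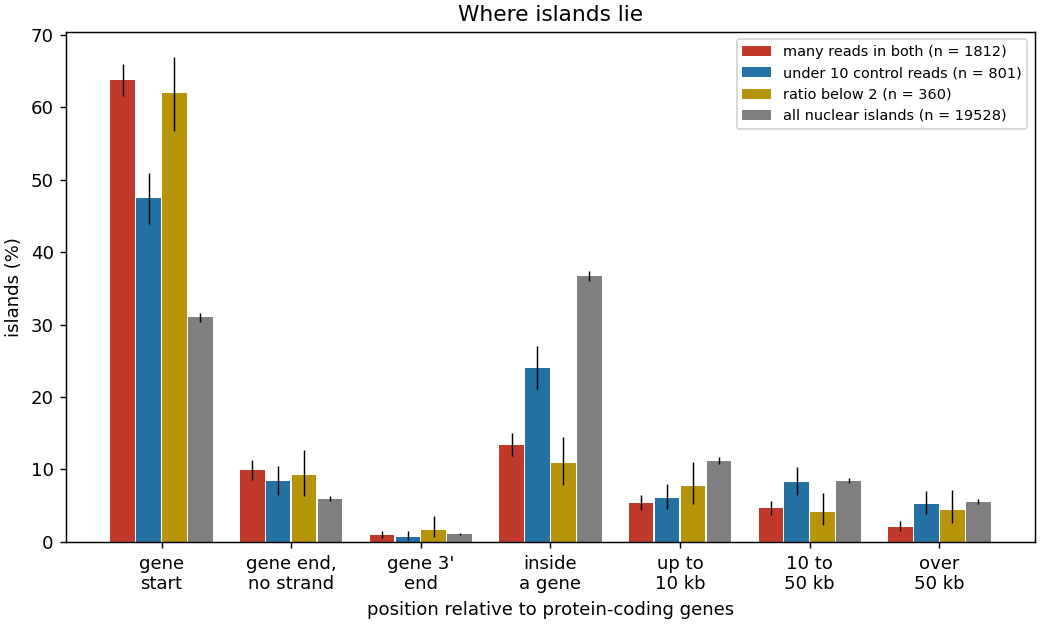
Share of islands in percent by position relative to protein-coding genes, for members, islands with as many peak reads but under 10 control reads, islands with as many peak reads and a ratio below 2, and all nuclear islands. Bars are shares and lines exact 95% intervals. Members stand at 63.7% over a gene start when chromosome 18 is counted, and at 13.4% inside genes.

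Members were wide. Their median width was 3000 bp (quartiles 2400 and 3800 bp, range 200 to 12000 bp), against 1400 bp in all nuclear islands. Islands with as many peak reads but few control reads had a median of 2600 bp, and those with a ratio below 2 had 2800 bp. The limits on reads bear on width, and a wide island covers a start more easily, so the share over a start was also taken within steps of width. From 2000 to 3000 bp it was 67.6% (63.9 to 71.1) of 672 members, 44.2% (39.0 to 49.5) of 362 islands with few control reads and 42.3% of all 3153 nuclear islands. From 1000 to 2000 bp it was 74.2% in members and 63.3% in islands with few control reads, with intervals of 68.7 to 79.2 and 56.4 to 69.7 that overlap slightly. Above 5000 bp the members stood at 52.5% (43.2 to 61.6). From 1000 bp on, the share in members fell with width, as it also did in islands with few control reads up to 5000 bp, while it rose up to there among all nuclear islands. Islands with a ratio below 2 stood at 68.5% (59.7 to 76.3) from 2000 to 3000 bp, an interval that holds the members' share. With a start required within 200 bp of the island's midpoint, members stood at 18.2% (16.5 to 20.1), islands with few control reads at 15.9% (13.4 to 18.7) and all nuclear islands at 13.0%. By that narrower measure the intervals of members and islands with few control reads overlap.

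**Figure D3:**
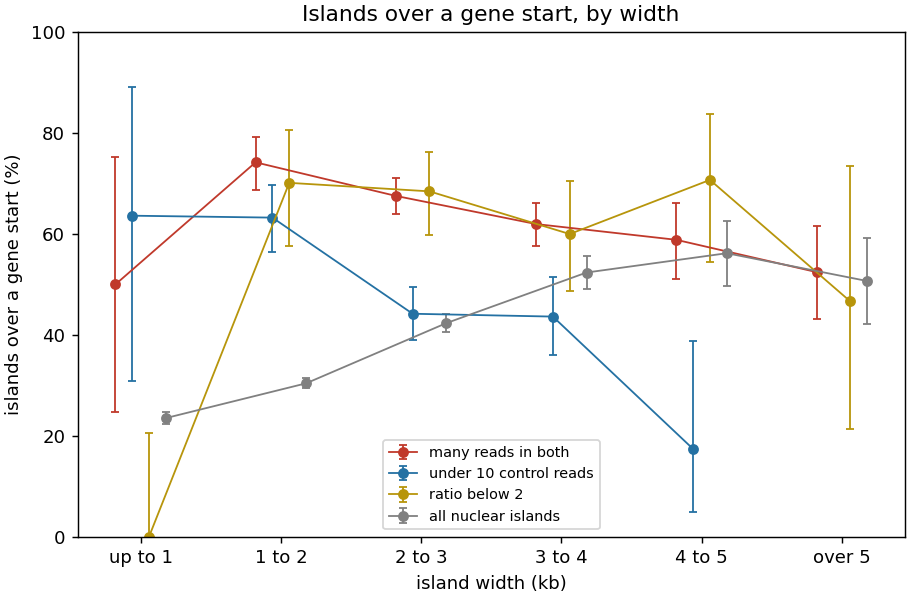
Share of islands over a gene start in percent, by island width in kb, for the same classes. Points are shares with exact 95% intervals, and points of fewer than 10 islands are left out. Members lie at 74.2% from 1 to 2 kb and at 52.5% above 5 kb, and the step up to 1 kb holds only 16 of them.

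Around the start, members reached further into the gene than away from it. In the 971 members with exactly 1 protein-coding gene starting inside, the island reached a median of 1188 bp upstream (quartiles 796 and 1799 bp) and 1505 bp downstream (957 and 2196 bp). The downstream side was the longer one in 578 of them (59.5%, exact 95% interval 56.4 to 62.6). It was longer in 51.1% (45.5 to 56.6) of islands with few control reads, 49.7% (42.4 to 57.1) of those with a ratio below 2 and 51.9% (50.6 to 53.2) of all nuclear islands. The members' interval overlaps slightly with those of both comparison classes, though not with that of all nuclear islands. Many genes have several listed starts. Over the 711 members at a gene with 1 listed start, the downstream side was longer in 58.5% (54.8 to 62.2), and the medians were 1208 bp upstream and 1442 bp downstream. At such genes it was 48.6% (42.2 to 55.0) of 245 islands with few control reads and 46.9% (38.5 to 55.4) of 143 with a ratio below 2. Both intervals again overlap slightly with that of members. In all nuclear islands it was 51.0% (49.5 to 52.5).

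**Figure D4:**
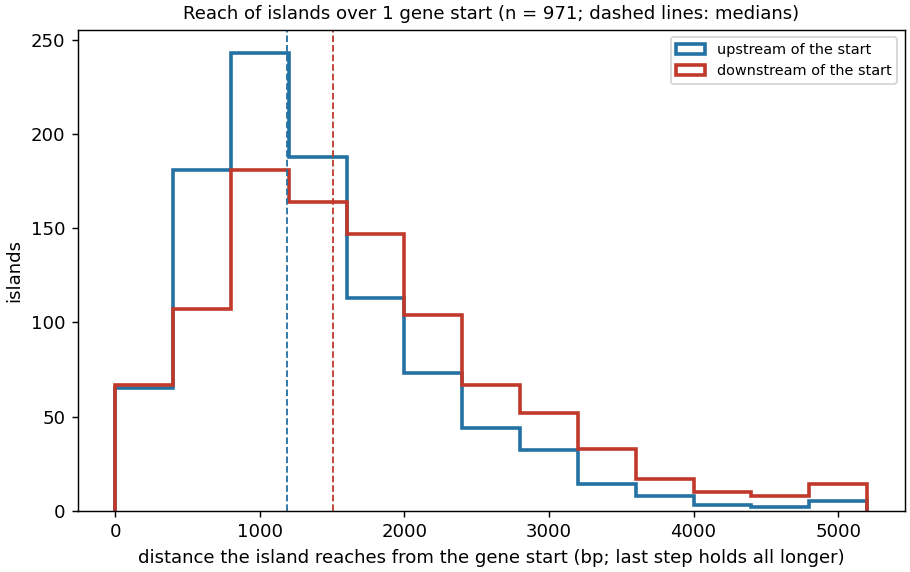
Number of members by the distance in bp that the island reaches upstream (blue) and downstream (red) of the gene start, for the 971 members over 1 gene start. Dashed lines are the medians, 1188 bp upstream and 1505 bp downstream.

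Some members covered the starts of several genes, at a share close to that of the comparison classes. Of the 1155 members over a start, 184 (15.9%) covered starts of 2 or more genes, and all 1155 together covered the starts of 1336 genes. Among islands over a start, 14.5% of those with few control reads covered 2 or more. It was 15.2% of those with a ratio below 2 and 11.3% of all nuclear islands over a start. In 144 members (8.10% of 1777, interval 6.88 to 9.47) 2 genes started in opposite directions within 1 kb of each other, a divergent promoter. The share was 6.04% (4.47 to 7.95) in islands with few control reads and 2.99% in all nuclear islands. Among islands over a start it was 12.5% in members and 12.4% in islands with few control reads.

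The promoters in members were rich in CpG, as were those in the other islands. Over the 300 bases of each RefSeq window (250 before and 50 after the start), the GC content had a median of 62.3% at the 1336 genes, against 56.3% at all 17492 genes. The CpG ratio, CpG counted over CpG expected from the C and G content, had a median of 0.833 (quartiles 0.697 and 0.952), against 0.576 for all genes and 0.311 for the 10863 genes with no island over a listed start. A ratio of 0.6 or more was found at 84.7% (82.6 to 86.5) of genes in members. It was 84.8% (81.1 to 88.0) at the 434 genes whose start lay in islands with few control reads. By this measure members lay above genes without islands, and their interval overlapped that of islands with few control reads.

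Matches to the motifs were counted in the same windows, and single letters decide a match. The GC box was found at 72.9% (70.4 to 75.3) of genes in members, 72.6% at islands with few control reads, 72.7% at a ratio below 2 and 46.3% of all genes. Among promoters of 60% GC or more it stood at 85.6% in members and 82.3% of all genes. The CCAAT box stood at 48.1% (45.3 to 50.8) in members, 47.5% at islands with few control reads and 39.0% of all genes. Within promoters of 60% GC or more it stood at 45.6% (42.3 to 48.9), 42.3% (36.5 to 48.3) and 33.1%. The ETS letters CCGGAAG were found at 16.7% (14.7 to 18.8) of genes in members, against 21.2% (17.4 to 25.3) at islands with few control reads, 22.3% (21.3 to 23.4) of the 6629 genes with any nuclear island over the start and 11.9% of all genes. Within promoters of 60% GC or more they stood at 16.7% (14.3 to 19.3) in members, 23.3% (22.0 to 24.7) with any island and 17.5% of all genes. The YY1 motif stood at 3.37% (2.47 to 4.48) in members, 2.87% with any island and 1.27% in all genes. Matches to the TATA box were found at 6.14% in members and 13.3% of all genes, but within promoters of 60% GC or more at 3.12% and 3.41%. The AP-1 site stood at 2.62% against 4.58% of all genes, and at 2.23% against 2.73% within those promoters. For the RUNX site the shares were 10.8% and 15.1%, and 8.47% and 9.32% within them. The NRF1 motif stood at 2.10% against 1.32%, and at 2.45% against 2.10% within them, and the CRE at 3.97% against 2.34%, and at 4.35% against 3.23%. At genes with any nuclear island over the start, the TATA box stood at 6.14%, AP-1 at 2.84% and RUNX at 11.9%. There NRF1 stood at 2.56% and the CRE at 4.03%. Each of these shares lay within the members' 95% interval, so these motifs did not set members apart from other islands. The NF-kB motif was found at 4 genes in members (0.299%, 0.0816 to 0.765) and 0.137% of all genes.

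The letters of the TCF/LEF site were rare at these promoters. CTTTGAA was found at 34 of 1336 genes in members (2.54%, 1.77 to 3.54) and at 4.76% (4.45 to 5.09) of all genes. CTTTGAT was found at 31 (2.32%, 1.58 to 3.28) and at 3.25% of all genes. Among promoters of 60% GC or more, CTTTGAA stood at 1.45% (0.774 to 2.47) in members and 1.74% in all genes. In islands with few control reads it was found at 3.92% (2.30 to 6.20) of 434 genes. The intervals of members and islands with few control reads overlap for both motifs. Nothing outside these windows was searched, since a genome sequence was not used here.

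The 10 members with the most peak-library reads lay mostly at protein-coding gene starts. The widest and most read member, 12000 bp on chromosome 11 from 106777801 to 106789800, had 193 against 67 reads and covered the starts of Polg2, Ddx5 and Cep95. Ddx5 encodes an RNA helicase of splicing and transcription. A member of 12000 bp at Irf2bpl, which encodes a transcriptional cofactor, had 134 against 42 reads. Next came members at Ier2 (127 against 48), Fos (124 against 57) and Zfp36 (122 against 57), genes of the immediate early response. The island over the start of the noncoding RNA gene Malat1 had 114 against 56 reads, and that of the AP-1 gene Jund 112 against 39. Equal to each other at 111 peak reads were an island 34124 bp from Snx9, with 26 control reads, and one over the starts of Mus81 and Cfl1, which encodes cofilin, with 34. An island over the start of Hjurp, which encodes a chaperone of centromeric histones, had 108 against 40 reads. Of these 10, 7 lay over a protein-coding start, and the one at Ier2 lay over an end of a gene whose strand is not in the promoter table.

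By control-library reads, the first 5 members were those at Polg2, Fos, Zfp36, Malat1 and Ier2. Then came Cldn34d with 48 control reads, Vav1, which encodes a signalling protein of blood cells, with 99 against 47, and 3 islands with 46 control reads. These were an island over the divergent start of Mrps18b and Ppp1r10, with 100 peak reads, one over the 3′ end of Irf2bp2, with 98, and one near Trim7, with 95, which holds 4 tRNA genes. The other members among the 5 widest lay at the ubiquitin ligase gene Arih1 (9800 bp, 86 against 36 reads), the chromatin remodelling gene Baz2a (8000 bp, 90 against 32) and the lamin gene Lmnb1 on chromosome 18 (8000 bp, 94 against 20).

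A few members were narrow and dense. The narrowest had 36 against 10 reads in 200 bp, inside 2210408I21Rik on chromosome 13 at 77439001 to 77439200. The island inside Cldn34d on the X chromosome had 103 against 48 reads in 600 bp, and one 23873 bp from Rpp21 had 52 against 26 in 600 bp. Islands of 800 bp lay inside Cdk5rap2 (49 against 20) and Luc7l2 (39 against 13). In all, 7 members held 40 or more peak reads per kb, where the median member held 13.9. Without these 7, the share over a gene start was 65.2%.

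Immediate early genes, which cells switch on within minutes of a stimulus, had many of these starts. Of the 24 genes of that list with a listed start, 11 (45.8%) started in a member, where 7.64% of all 17492 protein-coding genes did. Another 10 started in an island that was no member, Fosb and Junb among them. Members over the AP-1 genes had 124 against 57 reads at Fos, 112 against 39 at Jund and 96 against 40 at Jun. Members at Zfp36 (122 against 57) and Zfp36l1 (90 against 38) lay over genes for proteins that destabilise mRNA. Those with fewer reads lay at Egr2 (39 against 16) and Dusp2 (31 against 15). The ratio of 2 or more in all of them was set by the rule. Some of these genes, Zfp36 and Zfp36l1 among them, also stand in the list of mRNA decay regulators. There, 8 of 17 starts (47.1%) lay in members, with Zc3h12a, the gene of Regnase-1, at 55 against 23 reads.

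Genes of transcription, splicing, translation and protein folding also had many of these starts. In transcription and chromatin 12 of 21 starts (57.1%) lay in members. The member at Polr2a, the gene of the largest subunit of RNA polymerase II, had 56 against 15 reads. Those at Cdk9 and Ccnt1, which encode the kinase and cyclin that release paused polymerase, had 54 against 21 and 48 against 18. Supt5, a pausing factor gene, had 52 against 22 and Ep300, which encodes a histone acetyltransferase, 45 against 18. Of 16 translation factor genes 8 (50.0%) started in members, Eif5a with 62 against 23 reads and Eif4a1 with 60 against 30 among them. In the list of ubiquitin and protein folding 9 of 18 did, led by the chaperone gene Hspa5 (77 against 30), Calr (59 against 16) and the ubiquitin gene Ubb (54 against 24). Among splicing factors it was 11 of 27 (40.7%), with Ptbp1 at 63 against 21 reads and Sf3b1 at 57 against 18.

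Cytosolic ribosomal protein genes had fewer. Islands of some kind lay over 35 of the 38 listed starts, but members over only 6 (15.8%). That is 17.1% of those with an island, where 20.2% of all protein-coding genes with an island over the start had a member there. In transcription and chromatin the corresponding share was 63.2% (12 of 19). The 6 were Rps28 (50 against 23 reads), Rpl12 (49 against 22), Rpl13a, Rpl11, Rps15 and Rpl9. In the list of noncoding RNA genes 4 of 11 starts lay in members, and the 3 besides Malat1 were the snoRNA host genes Snhg5 (36 against 14 reads), Gas5 (35 against 10) and Snhg12 (30 against 11). No test compares these lists.

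**Figure D5:**
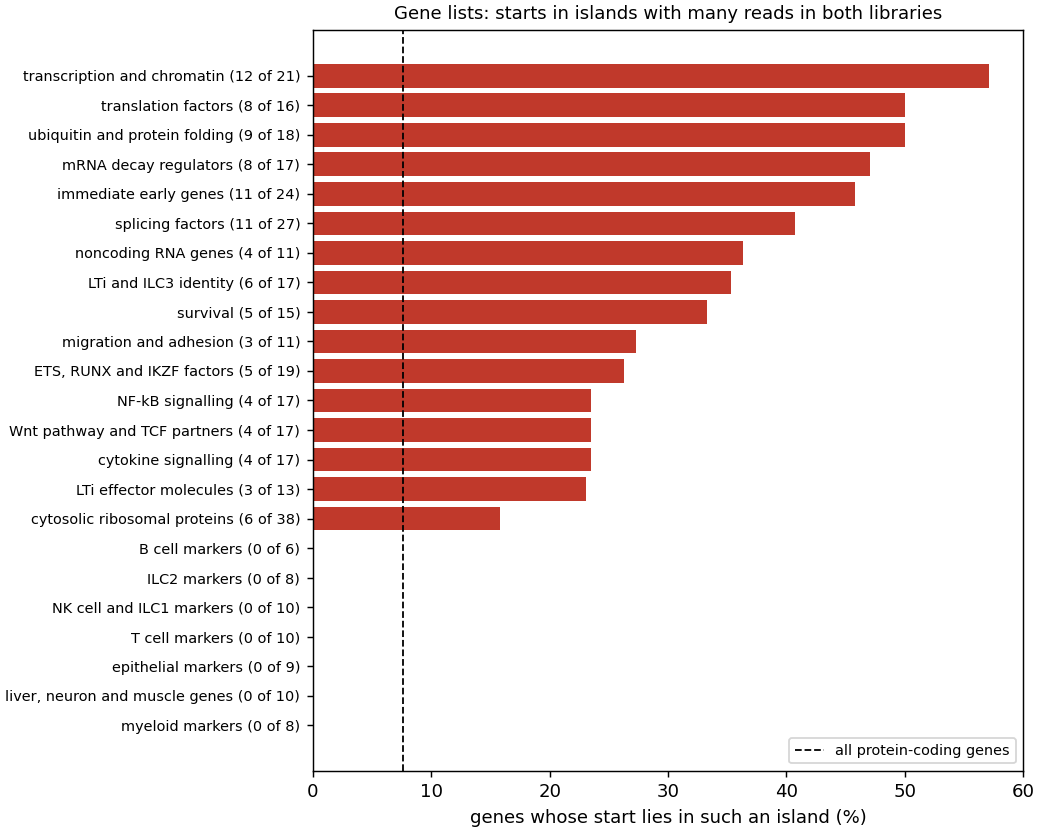
Share of the genes of each list, in percent of those with a listed start, whose start lies in a member. Counts stand beside the list names, and the dashed line marks the 7.64% of all protein-coding genes. Transcription and chromatin stands at 57.1%, cytosolic ribosomal proteins at 15.8%, and the 7 lists of other cell types at 0.

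LTi genes were among those with members. Of 17 listed starts in the LTi and ILC3 identity list 6 (35.3%) lay in members. Id2, which encodes an inhibitor of E proteins needed by all innate lymphoid cells, had 91 against 25 reads over 7000 bp. Il7r, the gene of CD127, had 85 against 32 over 7800 bp. Nfil3, Runx1, Nrp1 and Cxcr6 followed with 58 against 22, 57 against 13, 54 against 10 and 41 against 11. At the starts of Il1r1, Batf, Ccr6, Tox2, Runx3 and Il2ra an island was present that was no member, as at Tcf7.

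Among LTi effector genes the members lay in 1 neighbourhood on chromosome 17. Ltb, for lymphotoxin beta, started in an island with 87 against 23 reads (35192401 to 35198800). Lta and Tnf shared an island with 84 against 31 reads (35201601 to 35208400), so the 3 genes count as 2 regions. The starts of Tnfsf11, Il22, Il17f and Csf2 lay in islands outside the class. The same holds for Tcf7, Lef1, Axin2 and Gsk3b in the Wnt list, where 4 of 17 starts lay in members: Tle3 (67 against 22), Rnf43 (62 against 25), Gsk3a (55 against 17) and Tle4 (32 against 12). Tle3 and Tle4 encode Groucho corepressors that bind TCF factors, and Rnf43 a ubiquitin ligase that removes Wnt receptors.

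The lists of signalling, survival and lymphoid transcription factor genes had smaller shares than transcription and chromatin. NF-kB genes started in members at 4 of 17 (Rel with 55 against 17 reads, Nfkb2, Traf3 and Nfkbia), and 5 others started in islands with a ratio below 2. For cytokine signalling it was also 4 of 17, with Stat3 at 79 against 30 reads, Tyk2 at 48 against 15, Cish at 35 against 11 and the receptor gene Il4ra at 30 against 13. Survival genes had 5 of 15, led by the kinase gene Pim1 (93 against 36) and followed by Bbc3, Bcl2, Bcl2l1 and Bad. In the list of ETS, RUNX and IKZF factors 5 of 19 started in members: Runx1, Etv6 (47 against 14), Irf2, Irf1 and Elk4. The migration list had 3 of 11, namely S1pr4 (51 against 22), Cxcr6 and Itga4. Of all protein-coding genes with a listed start, 7.64% started in a member, and 20.2% of those with an island over the start. The latter share was 23.5% for cytokine signalling, where all 17 starts had an island, and 26.7% for NF-kB genes. It was 33.3% for the migration list, 33.3% for the ETS, RUNX and IKZF list and 41.7% for survival genes.

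Markers of other cell types had no listed start in this class. The 7 lists for B cells, T cells, NK cells and ILC1, ILC2, myeloid cells, epithelium, and liver, neuron and muscle hold 84 genes, of which 61 have a listed start. Members lay over 0 of the 61 and islands of any kind over 7. For all protein-coding genes with a listed start the shares were 7.64% and 37.9%. Of all such genes with an island over the start, 20.2% had a member there, so 7 starts are few to judge the 0 by. By locus the marker genes did not stand apart in this way, since 11.6% of all protein-coding genes had a member within 10 kb. Within 10 kb of the 84 genes, members were found at 9, namely Cd79a, Pax5, Cd74, Cd3g, Cd28, Lck, Klrb1c, Klrg1 and Cd68. They include islands inside Pax5 (31 against 12 reads) and Cd28 (31 against 14), and one over an end of Cd74 on chromosome 18 (49 against 20). No member lay within 10 kb of the epithelial or the liver, neuron and muscle genes.

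Some genes held several members. With 1 kb on either side, 90 genes held 2 members, 8 held 3 and 4 held 4. The 4 were Ubac2 (238 against 89 reads in all), Ets1 (208 against 80), Fnbp1 (163 against 51) and Hivep2 (154 against 45). Ets1 encodes a lymphocyte transcription factor, and all its members lay inside the gene. Its largest, at 32695801 to 32703000 on chromosome 9, had 86 against 39 reads. Neighbouring members were a median of 293 kb apart, and 120 of 1792 gaps were 10 kb or less.

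Transfer RNA genes, which RNA polymerase III transcribes, lay in members often. Of 408 tRNA genes in the annotation, 79 (19.4%) overlapped a member and 175 (42.9%) any nuclear island. For the bodies of all 21887 protein-coding genes it was 8.40% and 45.7%. Of 12727 long noncoding RNA genes 333 (2.62%) overlapped a member. The 79 tRNA genes lay in only 39 members (2.15% of members, interval 1.53 to 2.93) because several often shared an island. Islands with few control reads over a tRNA gene numbered 6 of 801 (0.749%, 0.275 to 1.62), those with a ratio below 2 numbered 11 of 360 (3.06%, 1.53 to 5.40), and all nuclear islands 110 (0.563%). Of the 39 members, 26 had no protein-coding start. The one with the most tRNA genes held 5 on chromosome 19 at 12009601 to 12014400, 15487 bp from Osbp, with 83 against 28 reads. Many tRNA genes have near-identical copies elsewhere, and how reads that match several places were handled is not stated in the labels, so the reads of single tRNA islands are uncertain. Small nucleolar RNA genes lay in 17 members (0.938%), against 0.375% of islands with few control reads, 1.39% at a ratio below 2 and 0.184% of all nuclear islands. For miRNA genes it was 25 members (1.38%), against 0.499%, 0.833% and 0.379%.

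Among the miRNA genes, Mir21a and Mirlet7i lay in members without a protein-coding start and are broadly expressed. Their mature sequences show which miRNAs these islands hold, with the seed (bases 2 to 8) in capitals.
mmu-miR-21a-5p, chr11:86584120-86584141, minus strand: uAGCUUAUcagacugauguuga
mmu-let-7i-5p, chr10:122985698-122985719, minus strand: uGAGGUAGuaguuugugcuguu
The Mir21a island, inside Vmp1, had 63 against 29 reads, and the Mirlet7i island, 3060 bp from Mon2, had 50 against 16. Their seeds differ, and ChIC-seq reads at a miRNA gene do not measure the miRNA.

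Few members lay far from genes. The 38 members over 50 kb from a protein-coding gene made up 2.10% (1.49 to 2.87), against 5.24% (3.80 to 7.02) of islands with few control reads and 5.54% of all nuclear islands. Islands with a ratio below 2 stood at 4.44% (2.56 to 7.12), an interval that overlaps that of members. The one with the most reads (102 against 35) covered the start of the noncoding gene Lncpint, 178028 bp from Mkln1. Others had as nearest genes Ets1 (166781 bp, 74 against 29), Fasl (71291 bp, 72 against 19), Ifngr1 (92349 bp, 57 against 17), Bcl6 (159935 bp, 51 against 14) and Id2 (143109 bp, 42 against 15). The nearest gene need not be the one such a region acts on.

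Chromosomes differed in the share of their nuclear islands that were members. On chromosome 7 members made up 13.1% of nuclear islands (11.3 to 15.1), though only 8.37 per 100 protein-coding genes, as it had 63.9 islands per 100 genes, and on chromosome 11 11.9% (10.4 to 13.4). Chromosome 11 had the most members, 218, or 13.5 per 100 protein-coding genes. The X chromosome had 6 members among 254 islands (2.36%, 0.872 to 5.07), 0.621 per 100 genes, with 26.3 islands of any kind per 100 genes where chromosome 11 had 114. Much of the contrast between X and chromosome 11 went with the limit on peak reads. Of islands within the members' limits on peak reads, 6 of 10 were members on X and 218 of 332 on chromosome 11. Over all chromosomes it was 1812 of 2974. With only 10 such islands, the share on X is uncertain. Kdm6a, a histone demethylase gene, had a member over its start on X with 45 against 19 reads.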

How the data were processed

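The submitters' processing notes name Bowtie2 2.4.2, the mm10 build and the island caller SICER 2.0, with no settings. For each island the authors deposited whole, unscaled read counts from a library called peak and one called control, together with a fold (a ratio of peak to scaled control reads) and a p-value and FDR per island, per the file headers. Positions are counted from 1. From these counts, members were selected by the rule and compared by position with RefSeq genes (GRCm38.p6) and RefSeq promoter windows, matched by gene ID. Intervals are exact Clopper-Pearson 95%. No test was run, since each group had 1 library. Python 3.11.15, numpy 2.4.6, pandas 2.3.3 and scipy 1.17.1 were used, after the functions had been tested on simulated data.

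Members, gene lists and motifs were chosen with earlier results of these data known. Named are the 10 members with most peak reads, the 8 with most control reads, the 5 widest and 5 narrowest (with ties), islands just inside or outside a limit, up to 5 genes per list with a member over the start, the genes with most members, and promoters of the most read members and, per motif, of the most read member holding it. Genes named beyond that rule were chosen after their values were seen. The start of a gene needs strand, which the promoter table gives and the gene table does not. Alternatives changed the limits of the rule, the scaling, the FDR, the definition of a start and the locus.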

Additional observations from a re-analysis of the deposited data

How the results depend on the processing

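No paired analysis was possible because each group has 1 library. Changed limits moved the number of members to 975 (peak reads from 40), 909 (control reads from 15), 1014 (authors' FDR at or below 0.05) and 101 (at or below 1e-05). The members' pooled fold of 1.38, which the limit on the ratio keeps above 1 at the authors' scale, was 1.36 with peak reads from 25, 1.41 from 40, 1.44 with control reads from 8, 1.28 from 15, 1.56 with a ratio of at least 2.5, 1.35 below 4, 1.61 and 2.08 at the 2 FDR limits, 1.08 with the table's totals set equal and 2.76 without scaling. The median width of 3000 bp became 2800 bp with peak reads from 25 or control reads from 8, 3400 bp from 40, 3200 bp from 15 and 4000 bp at the stricter FDR. The share over a gene start, 65.0%, was 67.3% with control reads from 15, 55.6% at an FDR of 1e-05 or less (n = 99), 68.1% with all genes, 18.2% within 200 bp of the midpoint and, in settings chosen after seeing the data, 68.6% without members within 10 kb of another and 68.3% with either end of any protein-coding gene. Members over 10 kb from a gene fell from 6.73% to 1.93% when noncoding genes were counted. Of the 455 listed genes, 159 (34.9%) had a member within 10 kb, where 11.6% of all protein-coding genes did. Of the 350 with a listed start, 97 (27.7%) had one over the start, where 7.64% of all did. The ETS share of 16.7% was 10.2% on the gene strand alone. The cause of these shifts was not tested, beyond the fewer islands that stricter limits leave. With a median of 15 control reads per member, single ratios have wide counting error.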
